A study of Mus musculus with 908 samples.

Results

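The cells described here are CD44-negative, integrin α6-positive cells of mouse skin squamous cell carcinoma, a tumour of keratinocytes, sorted singly. They come from the part of the series before adoptive cell transfer, an immunotherapy with infused T cells. Their members were chosen by name and by depth: the 96 libraries of the plate named for this gate were taken, and 91 were kept because at least 2000 gene rows, ERCC spike-ins aside, reached 1 TPM. TPM is a relative transcript level corrected for transcript length, so genes can be compared within a cell. These 91 were among 696 kept libraries of 908 in the series. The 5 wells left out had 17 to 1674 genes.

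The series profiled tumour cells by Smart-seq2, which amplifies full-length cDNA from 1 cell per well. All mice before therapy carried TRE-HrasG12V;SBE-mCherry-PGK-rtTA3, in which rtTA3, expressed from the ubiquitous PGK promoter, switches on the HrasG12V oncogene (G12V, a change at codon 12), and mCherry reports signalling through SMAD-binding elements. The mice were of mixed sex and aged P60 to P90, and the labels name no animal, tumour or pool. Libraries labelled after transfer have another strain label, TRE-OVA;TRE-HrasG12V:PGK-rtTA3P2AmCherry. Every gate excluded cells with CD45, CD31, CD140a or CD117 on their surface. The CD44-negative gate took integrin α6+ cells lacking mCherry, CD34 and CD44. The reporter-positive gate took integrin α6+ cells with mCherry, CD34 and CD44 (73 and 32 cells in 2 named sets), the CD44+ reporter-negative gate took integrin α6+ CD44+ cells without mCherry or CD34 (15 cells), and the α6-negative gate took cells lacking integrin α6, mCherry, CD34 and CD44 (42 cells). Because no animal was named, each gate counted as 1 sample: differences between gates are given by size, with no test, and cells are not replicates of a condition.

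Integrin α6 pairs with integrin β4 in hemidesmosomes, the anchors that hold basal keratinocytes to the basement membrane together with collagen XVII and a laminin of the basement membrane. When basal cells leave the basement membrane they replace the keratins Krt5 and Krt14 with Krt1 and Krt10 and begin the programme that ends in the cornified envelope. Krt6a, Krt6b and Krt16 are keratins of wounded, hyperproliferative or inflamed epidermis, and Krt15 and Sostdc1 are best known from the basal layer and the hair follicle.

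The libraries of the gate had 2903 to 8297 genes at 1 TPM or more, with a median of 6810, against medians of 7760 in the reporter-positive, 7222 in the CD44+ reporter-negative and 5519.5 in the α6-negative gate. A median of 72.5% of TPM (54.5% to 81.3%) fell on 8 rows treated as ribosomal, among them the protein-coding gene Lars2. TPM tables keep no read depth, so genes per cell stood in for it. Some libraries of the series matched each other in pairs, like repeats of 1 cell, and no CD44-negative library was in such a pair. By contrast, many libraries of other gates had such a partner labelled as taken after transfer, under the other strain label. These were 71 of 73 libraries of the first reporter-positive set, 25 of 32 of the second and 14 of 15 CD44+ reporter-negative libraries. Comparisons with these gates are therefore also given for the 9 reporter-positive cells without a partner; only 1 CD44+ reporter-negative cell had none.

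The plate itself held cells from at least 1 female and 1 male source, split between its upper and lower rows. Xist, the RNA that silences an X chromosome in females, was found without Y-linked transcripts in 42 of 45 cells in rows A to D and in 0 of 46 cells in rows E to H. At least 1 of the Y-linked genes Ddx3y, Eif2s3y, Kdm5d and Uty was found in 44 of 46 cells in rows E to H and in 1 of 45 in rows A to D. The median number of genes was close, 6789 in rows A to D and 6890 in rows E to H. Other genes followed the same split. Hoxa7, a transcription factor gene of body position, was found in 40 of 45 cells of rows A to D and in 0 of 46 of rows E to H, and 7 Hox genes (Hoxa6, Hoxa7, Hoxa9, Hoxb6, Hoxb7, Hoxb8 and Hoxb9) were found in at least 10% of the upper and in none of the lower cells. The processed pseudogene Rpl34-ps1 was found in 45 of 45 upper cells (mean 311.8 TPM) and in 4 of 46 lower cells (1.31 TPM). Gm6166, another processed pseudogene, showed the reverse, with 4 of 45 upper cells (1.04 TPM) and 45 of 46 lower cells (425.7 TPM). Reads of processed pseudogenes cannot be separated with certainty from those of their parent genes.

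The upper and lower rows of the plate resembled different other sets of libraries. The CD44+ reporter-negative cells had the pattern of the upper rows, with Xist in 14 of 15, Rpl34-ps1 in 15 of 15, Hoxa7 in 9 of 15 and Gm6166 in 0 of 15. The first reporter-positive set had the pattern of the lower rows, with Y-linked transcripts in 71 of 73, Gm6166 in 90.4%, and Rpl34-ps1 in 4.11% of cells. The well names of the CD44+ cells (rows G and H) and of the second reporter-positive set (rows A to F) do not overlap, and whether they shared a plate is not stated in the labels. Sex, animal and plate position cannot be told apart. Comparisons of gene lists are therefore also given within a pattern, rows A to D against the CD44+ reporter-negative cells and rows E to H against the first reporter-positive set.

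**Figure D1:**
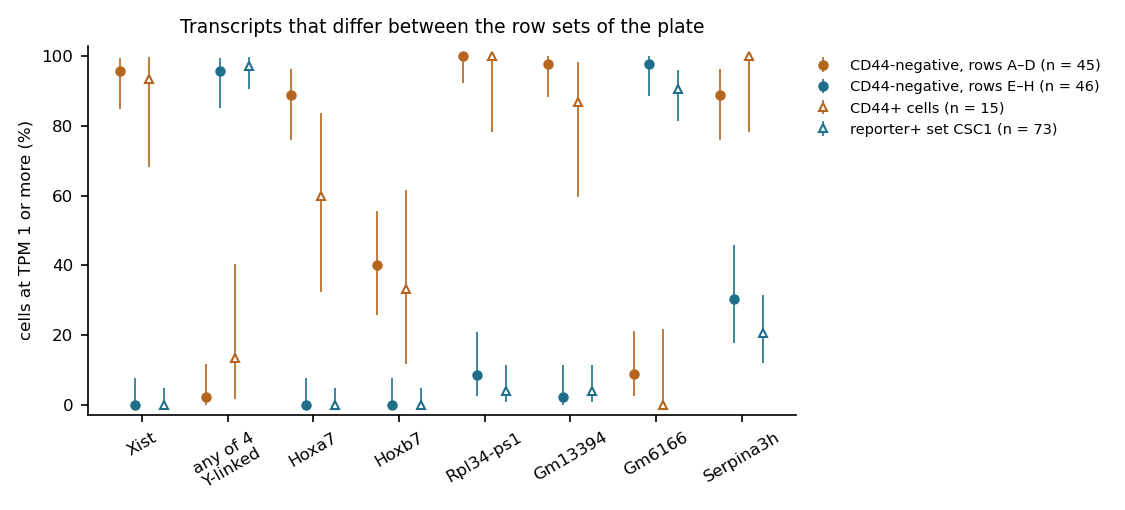
Share of cells (%, y axis) with at least 1 TPM of Xist, any of 4 Y-linked genes, 2 Hox genes, 3 pseudogenes and Serpina3h (x axis) in rows A to D (45 cells) and E to H (46 cells) of the CD44-negative plate, the CD44+ reporter-negative cells (15) and the first reporter-positive set (73 cells); bars are exact 95% intervals that cover the counting of cells only. Rows A to D sit with the CD44+ cells and rows E to H with the first reporter-positive set.

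The transcripts of the gate bore out the keratinocyte label, but not an absence of Cd44 RNA. Keratinocyte markers (Krt5, Krt14, Krt6a, Trp63, Perp, Dsp, Dsg3, Sfn, Epcam and Cdh1) had the highest mean log2(TPM+1) of 5 marker lists in 91 of 91 cells, between 5.95 and 8.98 with a median of 7.87. Fibroblast, endothelial and leukocyte lists had a median of 0 and reached at most 0.97, 0.92 and 0.48, and the pericyte or muscle list reached 1.23. In the CD44+ reporter-negative gate 12 of 15 cells and in the α6-negative gate 27 of 42 cells were led by keratinocyte markers, and the remaining cells of those gates by fibroblast or pericyte markers. Cd44 (chr2:102811141-102901665, minus strand, GRCm38), which encodes the surface receptor used for the sort, was found in 91 of 91 CD44-negative cells at 28.6 to 605 TPM, with a median of 132.1. Its mean of 139.4 TPM was below the 372.3 of the reporter-positive gate and above the 73.2 of the CD44+ reporter-negative and 61.4 of the α6-negative gate. The sort was made on surface protein, which the table does not measure. Of the other sort genes, Cd34 and Pecam1 (CD31) were each found in 10 of 91 cells, and Ptprc (CD45), Kit (CD117) and Pdgfra (CD140a) in 0 of 91, which allows a share of up to 3.97% by the exact interval.

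The 5 genes that mark the gate were not a single profile shared by its cells. Itga6 (chr2:71745616-71858416, plus strand), integrin α6 itself, was found in 87 of 91 cells at 0 to 267.3 TPM with a median of 33.98. Its mean of 45.3 TPM compared with 87.5 in the reporter-positive, 28.5 in the CD44+ reporter-negative and 7.73 in the α6-negative gate, so the sorted protein and its RNA had the same order between α6-positive and α6-negative cells. Col17a1 (chr19:47646344-47692094, minus strand), collagen XVII of the hemidesmosome, was found in 79 of 91 cells (86.8%, 95% interval 78.1% to 93%) at 0 to 441.9 TPM with a median of 86.8. Its mean was 116.8 TPM, near the 131.2 of the reporter-positive and 80.9 of the CD44+ reporter-negative gate and far from the 2.42 of the α6-negative gate. Both hemidesmosome genes thus set the gate apart from the α6-negative cells only.

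Krt1, Krt15 and Sostdc1 were each missing from a sizeable share of cells. Krt1 (chr15:101845426-101850794, minus strand), the type II keratin of suprabasal cells, was found in 69 of 91 cells (75.8%, 95% interval 65.7% to 84.2%) and ran from 0 to 5628 TPM with a median of 26.4 and a mean of 562. It was under 1 TPM in 22 cells and at 1000 TPM or more in 20. The upper and lower rows differed: Krt1 was found in 23 of 45 upper cells (median 1.06 TPM) and in 46 of 46 lower cells (median 83.1 TPM). Its mean was 42.1 TPM in the reporter-positive, 99.1 in the CD44+ reporter-negative and 217.98 in the α6-negative gate. Krt15 (chr11:100131758-100135928, minus strand) was found in 45 of 91 cells (49.5%, 95% interval 38.8% to 60.1%), at 0 to 1531 TPM with a median of 0 and a mean of 74.4, and the upper and lower rows were alike (24 of 45 and 21 of 46). It was found in 7.62% of reporter-positive cells, 6 of 15 CD44+ reporter-negative cells and 3 of 42 α6-negative cells, although 1 α6-negative cell at 4991 TPM lifted that gate's mean to 120. Sostdc1 (chr12:36314139-36318452, plus strand), a secreted BMP and WNT antagonist, was found in 59 of 91 cells (64.8%, 95% interval 54.1% to 74.6%) at 0 to 601 TPM with a median of 12.5. Its mean was 27.1 TPM in the upper and 110.7 TPM in the lower rows, against 3.45 in the reporter-positive, 27.5 in the CD44+ reporter-negative and 17.5 in the α6-negative gate. All 5 genes were found together in 25 of 91 cells, 5 of 45 in the upper and 20 of 46 in the lower rows.

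**Figure D2:**
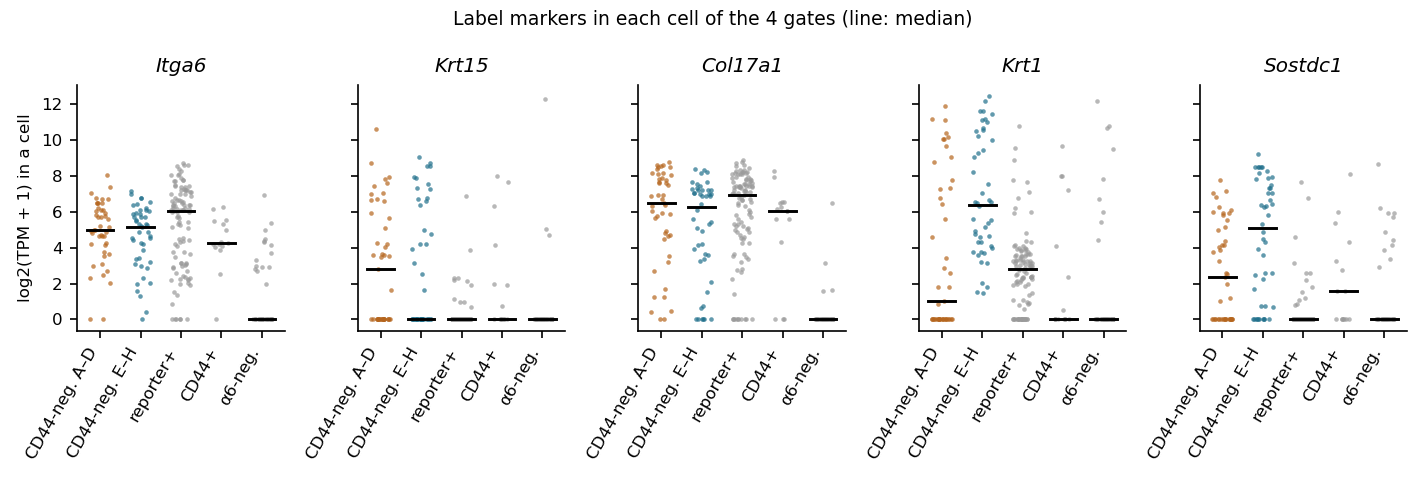
Level of Itga6, Krt15, Col17a1, Krt1 and Sostdc1, as log2(TPM+1) on the y axis, in every cell of rows A to D and E to H of the CD44-negative plate and of the 3 other gates (x axis); each point is a cell, the line is the median, and the α6-negative gate shows its 43 libraries, of which 2 were averaged as repeats elsewhere. Krt1 is above 1 TPM in every cell of rows E to H and in 23 of 45 cells of rows A to D, while Krt15 has cells at 0 in each row set.

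Basal keratins and proteins of stressed epithelium led the most expressed genes. Krt14, the type I keratin of basal cells, ran from 75.5 to 13652 TPM with a median of 7130, and its partner Krt5 from 24.3 to 3666 TPM with a median of 1769. Both were found in 91 of 91 cells, and their means of 7114 and 1733 TPM were close to the 6751 and 1689 of the reporter-positive gate. The next genes were uneven. Fabp5, an epidermal fatty acid binding protein, had a mean of 2652 TPM but a median of 1144 and a range from 0 to 22582 TPM. Krt6a ran from 0 to 7317 TPM (median 1009, mean 1761) and Krt16 from 0 to 8670 TPM (median 164.7, mean 1135). Lgals7, galectin 7 of stratified epithelium, was even by comparison, with 517.7 to 9886 TPM in every cell and a median of 1247.

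Stefin A family genes and secreted products such as Krtdap and Apoe were also among the 30 highest protein-coding genes outside ribosomal and mitochondrial ones. The stefin A gene Stfa3 and its neighbour BC100530, cysteine protease inhibitors of differentiating epidermis, averaged 1071 and 1534 TPM. Near-identical copies exist for the stefin A and Sprr2 families, so their single-gene values are uncertain. Krtdap, a keratinocyte differentiation-associated peptide, averaged 1078 TPM (0 to 9519, median 691). Apoe, the lipid carrier apolipoprotein E, was found in 91 of 91 cells at 5.10 to 8166 TPM with a median of 648. Its median in the reporter-positive gate was 17.5 TPM and its mean 172.97 TPM, against 1009 in the CD44-negative, 1049 in the CD44+ reporter-negative and 1224 in the α6-negative gate. Apoe was thus low in the reporter-positive gate rather than high in this one, and the 9 reporter-positive cells without a partner also averaged 177.1 TPM. Ucp2, a mitochondrial carrier, gave the same order with 705 TPM against 253.7 in the reporter-positive gate. In contrast, S100a6, a calcium-binding protein, averaged 586 TPM against 2690 in the reporter-positive gate.

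Genes found in nearly all cells included most of the listed genes of protein synthesis and energy. At least 1 TPM in 95% or more of the cells was reached by 1245 genes, which is 2.68% of the 46517 gene rows and 20.3% of the 6121 genes with a mean of 5 TPM or more. Of the 1245, 1190 were protein coding. The listed genes of protein synthesis and energy were nearly complete: 20 of 20 cytosolic ribosomal proteins, 14 of 14 translation factors, 19 of 20 nuclear genes of oxidative phosphorylation, 15 of 16 folding factors and 13 of 14 proteasome and ubiquitin genes. Actin cytoskeleton genes came to 12 of 14 and the keratinocyte markers to 8 of 10. Desmosome genes, which join keratinocytes to each other, came to 6 of 9. Among them were Dsp at 29.9 to 456.4 TPM and Jup at 101.45 to 1923 TPM in every cell. Basal keratinocyte genes came to 8 of 20, with Trp63, the transcription factor that maintains stratified epithelia, at 8.74 to 190.7 TPM in every cell. Early suprabasal genes came to 2 of 18, and interferon response and G2/M genes to 0 of 24 and 0 of 22. Detection also follows level, and the lists differed in it. The median of mean TPM was 912 for the cytosolic ribosomal proteins, against 14.5, 3.38 and 10.4 for these last 3 lists.

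Detection follows depth, so the same genes were counted in cells with 6000 to 8000 genes, 69 of them in the CD44-negative gate. There, 1110 of the 1245 reached 95% of the 58 reporter-positive cells, 1023 of the 10 CD44+ reporter-negative cells and 647 of the 15 α6-negative cells. Because the 1245 were chosen in this gate, lower numbers elsewhere are built in: at that depth 1694 genes of any kind reached 95% of the CD44-negative cells, 1907 of the reporter-positive, 1979 of the CD44+ reporter-negative and 920 of the α6-negative cells. Oplah, Ltb4r2 and Grhl2 were picked among the 1245 for large gaps in detection to another gate at that depth. Their lower shares there are thus built in as well. Oplah, the 5-oxoprolinase of the glutathione cycle, was found in 95.7% of CD44-negative, 63.8% of reporter-positive, 80% of CD44+ reporter-negative and 46.7% of α6-negative cells. Ltb4r2, a leukotriene B4 receptor expressed by keratinocytes, was found in 95.7%, 81%, 70% and 40% in the same order. Grhl2, an epithelial transcription factor, was found in 98.6% of CD44-negative and 93.1% of reporter-positive cells but in 60% and 33.3% of the other gates, which also held cells led by other markers.

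To find genes that vary between cells, the standard deviation (SD) of log2(TPM+1) over cells was compared with the running median SD of genes of like mean, and the difference is called the excess SD. An excess of 1 or more was reached by 2.33% of 6049 genes over all cells, by 2.38% in rows A to D, by 2.15% in rows E to H and by 1.41% (85 genes) in both. Across the 6049 genes, which are not independent replicates, the excess in the upper and in the lower rows had a Pearson r of 0.772. Of those past the threshold over all cells, 92 were protein coding, 36 pseudogenes and 11 small RNAs. The most variable protein-coding genes outside the mitochondrial genome were Fabp5 (excess 2.93), Krt16 (2.88), Krt1 (2.84), Krt6b (2.70), Krt6a (2.55), Krtdap (2.51), Calm4 (2.50) and Sprr2a2 (2.48). Stfa3 (2.27), 2610528A11Rik (2.26) and Stfa1 (2.12) came next. Krt14 (0.46), Krt5 (0.74) and Cd44 (-0.18) stayed under the threshold.

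**Figure D3:**
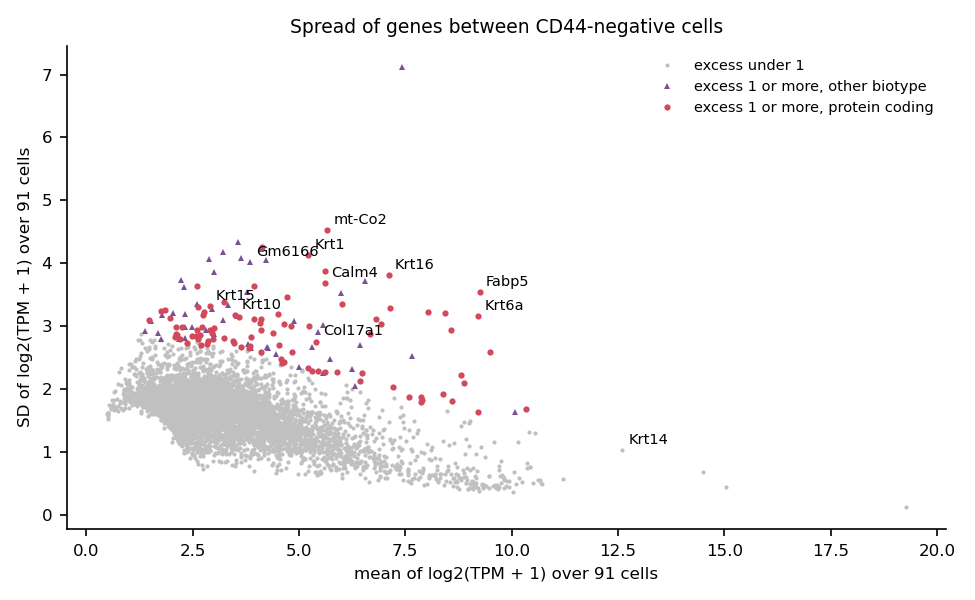
Mean of log2(TPM+1) over the 91 CD44-negative cells (x axis) against the SD over cells (y axis) for the 6049 genes of mean 5 TPM or more found in at least 10% of cells; coloured points are the genes with an excess SD of 1 or more, by gene type. Protein-coding genes such as Fabp5, Krt16 and Krt1 stand above the band at high means, beside pseudogenes and small RNAs.

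Some of the variable rows were ones that the alignment may not separate. The ribosomal row Yam1 had the largest excess (6.26). The mitochondrial gene mt-Co2 (excess 3.36) was found in 56 of 91 cells and mt-Nd3 in 32 of 91, while mt-Nd1, mt-Co1 and mt-Cytb were found in 91 of 91. For each mitochondrial gene the lowest r over cells among the nuclear copies compared was kept. It was -0.634 for mt-Co2 (with Gm28661), -0.700 for mt-Nd3 (with Gm28438) and -0.428 for mt-Co3. For mt-Nd1, mt-Co1 and mt-Cytb it was 0.079, -0.013 and 0.045. The part of alignment in this spread was not tested. Rpl34-ps1 (2.52), Gm13394 (2.66) and Gm6166 (2.38) carried the contrast between the row sets, and within rows A to D the excess of Rpl34-ps1 was -0.16, while Gm6166 kept 1.71 within rows E to H.

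The genes that moved with and against Krt1 ran from suprabasal to hemidesmosome genes. Among the 91 other variable protein-coding genes, 15 had a Pearson r with Krt1 of 0.5 or more in both row sets and 8 of -0.5 or less, a choice that fixes their sign in each, while 12 had opposite signs in the upper and lower rows. These correlations are over 45 and 46 cells that share a plate and differ in depth, and they are given without a test. The share of all 6049 genes that pass the same bounds was not counted, so these counts have no background here. Krt10, the suprabasal partner of Krt1, had r of 0.831 in the upper and 0.838 in the lower rows. Calm4, a calmodulin-like skin protein, had 0.814 and 0.836, Krtdap 0.544 and 0.714, Fabp5 0.518 and 0.778, Krt16 0.642 and 0.659 and Them5, a mitochondrial thioesterase, 0.835 and 0.566. The negative side held the basement membrane contacts: Itgb4 (-0.764 and -0.832), Col17a1 (-0.639 and -0.712), the laminin chain gene Lamb3 (-0.507 and -0.780) and Itga3 (-0.655 and -0.699). Cav1, caveolin 1, had -0.670 and -0.766, and Ftl1, a ferritin light chain, -0.569 and -0.629.

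The promoters of 4 of these genes are shown because they moved together or against each other: Krt10, Krtdap and Calm4 on the Krt1 side and Col17a1 on the hemidesmosome side. Each line gives the 250 bases before the RefSeq start, 5′ to 3′ on the gene's strand, with matches to the AP-1 motif TGANTCA and to the TATA motif TATAAA in capitals, searched on both strands.

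Krt10 promoter, GRCm38.p6 chr11:99389365-99389614, minus strand: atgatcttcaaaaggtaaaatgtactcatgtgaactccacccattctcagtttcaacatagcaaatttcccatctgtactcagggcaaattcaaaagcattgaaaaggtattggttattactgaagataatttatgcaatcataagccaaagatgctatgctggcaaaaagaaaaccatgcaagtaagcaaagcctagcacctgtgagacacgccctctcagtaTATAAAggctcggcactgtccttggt
Krtdap promoter, GRCm38.p6 chr7:30787655-30787904, plus strand: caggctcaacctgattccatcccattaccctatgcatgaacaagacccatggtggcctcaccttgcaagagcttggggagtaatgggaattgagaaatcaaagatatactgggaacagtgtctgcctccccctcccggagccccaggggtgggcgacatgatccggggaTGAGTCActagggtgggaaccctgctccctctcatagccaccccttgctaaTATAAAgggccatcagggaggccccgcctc
Calm4 promoter, GRCm38.p6 chr13:3837507-3837756, plus strand: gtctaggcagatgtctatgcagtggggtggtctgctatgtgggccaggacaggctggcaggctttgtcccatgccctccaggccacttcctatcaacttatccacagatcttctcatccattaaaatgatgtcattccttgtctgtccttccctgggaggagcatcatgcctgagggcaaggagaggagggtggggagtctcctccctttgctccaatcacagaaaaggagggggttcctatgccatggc
Col17a1 promoter, GRCm38.p6 chr19:47692043-47692292, minus strand: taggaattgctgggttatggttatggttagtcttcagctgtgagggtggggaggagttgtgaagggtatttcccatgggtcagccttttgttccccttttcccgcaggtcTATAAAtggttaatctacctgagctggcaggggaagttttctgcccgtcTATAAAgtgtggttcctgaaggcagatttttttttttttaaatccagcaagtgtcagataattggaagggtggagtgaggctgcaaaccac

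Krtdap held 1 AP-1 and 1 TATA match, Krt10 held 1 TATA match, Col17a1 held 2 TATA matches and Calm4 held none of either. Of the 15 genes on the Krt1 side, 11 were in the RefSeq promoter table, and 3 held TGANTCA, 5 held TATAAA and 1 held the GC box GGGCGG. Of the 8 on the other side, 6 were in the table, and 0, 2 and 3 of them held these motifs. Among all 32851 promoters cut to the same length, 6.75% held TGANTCA, 12.4% TATAAA and 32.7% GGGCGG. These shares count promoters, whereas a gene of either side counted if any of its promoters matched (12 promoters for the 11 genes and 9 for the 6). The 3 motifs share no letters that overlap by construction, and a match is only a description of these letters.

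Summed over the lists, basal keratinocyte genes and early suprabasal genes mirrored each other. The mean log2(TPM+1) of the 20 basal genes ran from 2.92 to 7.18 with a median of 5.49, and that of the 18 early suprabasal genes from 0.79 to 6.11 with a median of 3.12. Their r over the 91 cells was -0.795 (-0.725 in the upper and -0.872 in the lower rows). Genes per cell had an r of 0.345 with the basal and -0.148 with the suprabasal level. The basal keratins differed in this: Krt14 had an r of -0.020 with Krt1 and -0.184 with Krt10, and Krt5 had -0.467 and -0.548. Many cells held transcripts of both kinds: 57 of 91 had Krt1 and Col17a1 (19 of 45 upper and 38 of 46 lower), and 62 of 91 had Krt1 and Krt10 (18 of 45 and 44 of 46), all of them beside Krt14 and Krt5. Itga6, the gene of the sorted integrin, had r of -0.614 with Krt1 and 0.763 with Col17a1, so α6-sorted cells with high Krt1 were at the low end of Itga6 RNA. Of genes of the cornified envelope, Lor, loricrin, was found in 0 of 91 cells and Flg, filaggrin, in 4 of 91, but Sprr1b, a small proline-rich protein, in 70 of 91 with a mean of 120.4 TPM and a median of 19.5. The summed level of the 20 listed envelope genes ran from 7.04 to 2926 TPM with a median of 81.2.

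**Figure D4:**
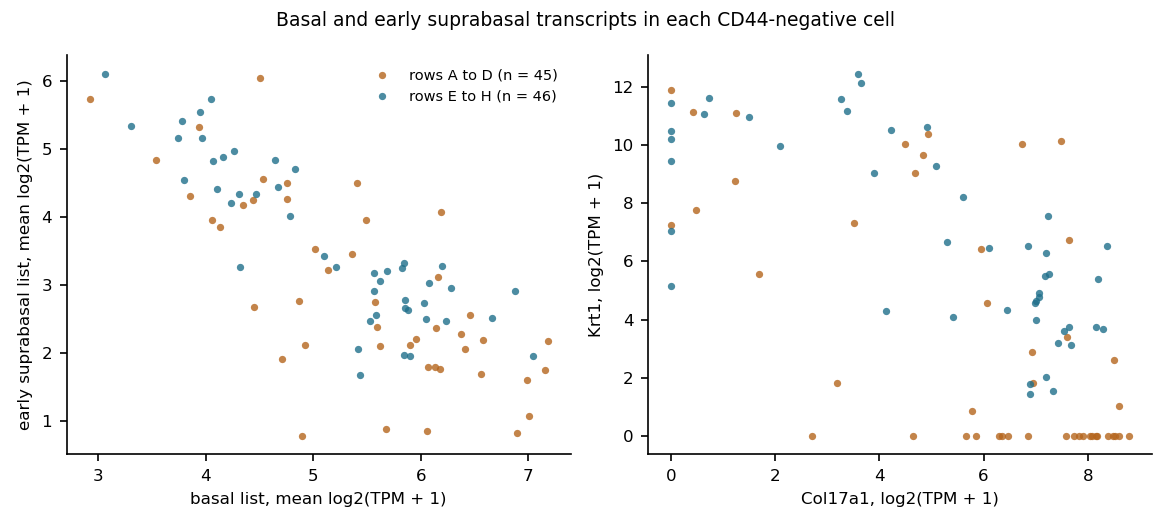
Left, mean log2(TPM+1) of the 20 basal keratinocyte genes (x axis) against that of the 18 early suprabasal genes (y axis) in each of the 91 CD44-negative cells; right, Col17a1 (x axis) against Krt1 (y axis) in log2(TPM+1); colours mark rows A to D and E to H. In both panels the cells slope downwards in each row set, with r of -0.725 and -0.872 on the left.

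Krt6a moved with stress keratins and against Krt15 and Apoe. In both row sets, 11 of the 91 genes had r of 0.5 or more with Krt6a and 3 of -0.5 or less. As for Krt1, the share of all 6049 genes past these bounds was not counted. Of the 11, 6 were also among the 15 that moved with Krt1, among them Fabp5, Krt16 and Krt6b. The positive side included Fabp5 (0.816 in the upper and 0.624 in the lower rows), Krt16 (0.798 and 0.661), Krt6b (0.713 and 0.679), Gjb2, the gap junction protein connexin 26 (0.684 and 0.722), the tubulin gene Tubb6 (0.798 and 0.614) and the glutathione transferase gene Gsta4 (0.657 and 0.561). The negative side was Krt15 (-0.768 and -0.506), Glul, glutamine synthetase (-0.629 and -0.548), and Apoe (-0.592 and -0.545). Krt1 and Krt6a had an r of 0.336 over all cells, and Krt15 had -0.628 with Krt6a against -0.326 with Krt1.

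At the low end of Krt6a stood 7 cells with Krt6a under 10 TPM, a threshold chosen after its values were seen. All were in rows A to C (wells A3, A4, A7, A10, B1, B7 and C3), and none of the 46 lower cells was under 10 TPM. Krt15, Apoe, Fabp5, Krt16 and Krt6b had been picked for their r with Krt6a over these same cells, so their contrast here is built in. The other genes given were chosen after their values were seen. Krt15 was found in 7 of 7 at 48.4 to 1531 TPM (median 222.1), against 17 of 38 other upper cells with a median of 0. Apoe ran from 782 to 6218 TPM in them, with a median of 1728 against 358.3. Fcgbp, an IgG Fc binding protein of mucus, was found in 7 of 7 (median 350.6 TPM) against 7 of 38, and Ccl27a, a skin T cell chemokine, in 7 of 7 (median 490 TPM) against 14 of 38. Postn, periostin, which is known from hair follicle and matrix cells, was found in 7 of 7 against 7 of 38. Fabp5, Krt16 and Krt6b had medians of 2.40, 0 and 0 TPM against 2117, 449.4 and 66.3. The 7 cells kept Krt14 (75.5 to 9410 TPM), Krt5 (596 to 3324 TPM), Trp63 and Col17a1 (57.1 to 359.3 TPM) in 7 of 7, and Ptprc, Cd207 and Vim were found in 0 of 7. Their Cd44 was 40.96 to 118.9 TPM with a median of 68.3, against 137.7 in the other upper cells.

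Depth differed with this split: the 7 cells had 4259 to 6271 genes (median 5553) against a median of 6933.5 in the other 38, and its part in the result was not tested. Among those 38 cells alone, the r with Krt6a was 0.877 for Krt16, 0.821 for Fabp5, -0.570 for Krt15 and -0.417 for Apoe, while Fscn1, the actin bundler fascin, passed from 0.542 to -0.121 without them.

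About 3 in 10 cells carried a broad set of mitotic transcripts. At least 11 of the 22 listed G2/M genes were found in 27 of 91 cells (29.7%, 95% interval 20.5% to 40.2%), 12 of 45 in the upper and 15 of 46 in the lower rows, and none of the 22 in 8 cells. Mki67, the proliferation marker Ki-67, ran from 0 to 72.6 TPM with a median of 1.06, and it was found together with Top2a in 31 of 91 cells. The G2/M level had an r of 0.520 with the S phase level, 0.195 with the basal and -0.165 with the early suprabasal level, and 0.471 with genes per cell.

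The class I genes B2m and H2-K1 were found in nearly all cells, and class II transcripts were present in a minority. Of the 14 listed class I genes only 3 were found in at least 95% of cells, and the list had a median share of 74.7%. B2m, the class I light chain, was found in 90 of 91 cells with a mean of 302.6 TPM, and H2-K1, a class I heavy chain, in 90 of 91 with a mean of 250.2 TPM. Cd74, the class II invariant chain, was found in 24 of 91 cells at up to 1236 TPM with a median of 0. All of Cd74, H2-Aa, H2-Ab1 and H2-Eb1 were found in 9 of 91 cells (9.89%, 95% interval 4.62% to 17.9%). Of these 9, 2 also had Cd207, Itgax, Ptprc or Csf1r, genes of Langerhans cells and leukocytes, and Ptprc was found in 0 of 91 cells. Among the 7 cells low in Krt6a, Cd74 was found in 4. Class I and interferon response levels had an r of 0.756 over cells, and Ifi27l2a, an interferon-inducible gene, was found in 25 of 91 cells, averaging 154.1 TPM in the upper and 6.04 TPM in the lower rows.

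Against the 3 other gates together, few genes were high in the CD44-negative gate. Differences are log2 ratios of mean TPM plus 1, over 9044 genes with a mean of 5 TPM or more in at least 1 of the 4 gates. Of these, 0.354% (32 genes, 19 of them protein coding) lay 2-fold or more above each other gate, and 1.76% lay 2-fold or more below each. Fam213a, a peroxiredoxin-like protein (chr14:40993740-41013788, minus strand), ran from 0 to 270.9 TPM with a median of 19.1 and was found in 62 of 91 cells. Its mean was 38.2 TPM against 7.55 in the reporter-positive and 6.13 in the CD44+ reporter-negative gate, and it was listed at 0 in every α6-negative cell.

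The other high genes named here were patchy. Adh7, an alcohol and retinol dehydrogenase, was found in 37 of 91 cells and averaged 14.7 TPM against 0.67, 4.12 and 1.44 in the reporter-positive, CD44+ reporter-negative and α6-negative gates. Car2, carbonic anhydrase 2, was found in 52 of 91 and averaged 40.8 TPM against 14.4, 11.03 and 7.76 in the same order. Gstm1, a glutathione transferase, was found in 75 of 91 and averaged 47.1 TPM against 3.32, 19.4 and 22.6. Slc16a14, a carrier of the monocarboxylate transporter family, was found in 59 of 91 and averaged 14.2 TPM against 0.39, 1.04 and 5.43. Krt1 and Sostdc1, which the label already names, and Igfbp2, Them5, Dlk2, Pecr, Ctnnal1, Ung and Tst completed those named here. Of the 15 genes that the naming rule gave, 6 stayed 2-fold or more above each other gate with only rows A to D, 13 with only rows E to H, and 6 when the gates were limited to cells led by keratinocyte markers. Sostdc1 reversed in the upper rows, where its log2 ratio to the CD44+ reporter-negative gate was -0.02. When the 9 reporter-positive cells without a partner stood for that gate, Fam213a averaged 4.89 TPM in them, Car2 6.56, Gstm1 1.99 and Krt1 30.3, and Adh7 and Slc16a14 were listed at 0.

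The genes low in the gate were led by the intermediate filament gene Vim, vimentin, which was found in 5 of 91 cells and averaged 0.50 TPM against 25.01 in the reporter-positive, 205.9 in the CD44+ reporter-negative and 315.7 in the α6-negative gate. Lgals1, galectin 1, ran from 0 to 195.8 TPM with a median of 0 and averaged 10.5 TPM against 240.8, 80.9 and 132.15. Tuba1a, a tubulin, averaged 10.5 TPM against 83.5, 97.8 and 90.9, and Sparc, a matrix glycoprotein, 31.9 TPM against 162.5, 273.02 and 735. The CD44+ reporter-negative and α6-negative gates held cells led by fibroblast or pericyte markers, whereas every reporter-positive cell was led by keratinocyte markers. With cells led by keratinocyte markers only, 55 genes were low, 48 of them shared with the full comparison. Of the 15 low genes that the naming rule gave, 3 stayed 2-fold or more below each gate in that comparison, and Sparc, Igfbp7, Mcam, Rhoc, Cyba, Col4a2 and Cnn3 were no longer below each other gate. Against the 9 reporter-positive cells without a partner, Lgals1 averaged 371.3 TPM in those cells and Vim 1.10 TPM.

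**Figure D5:**
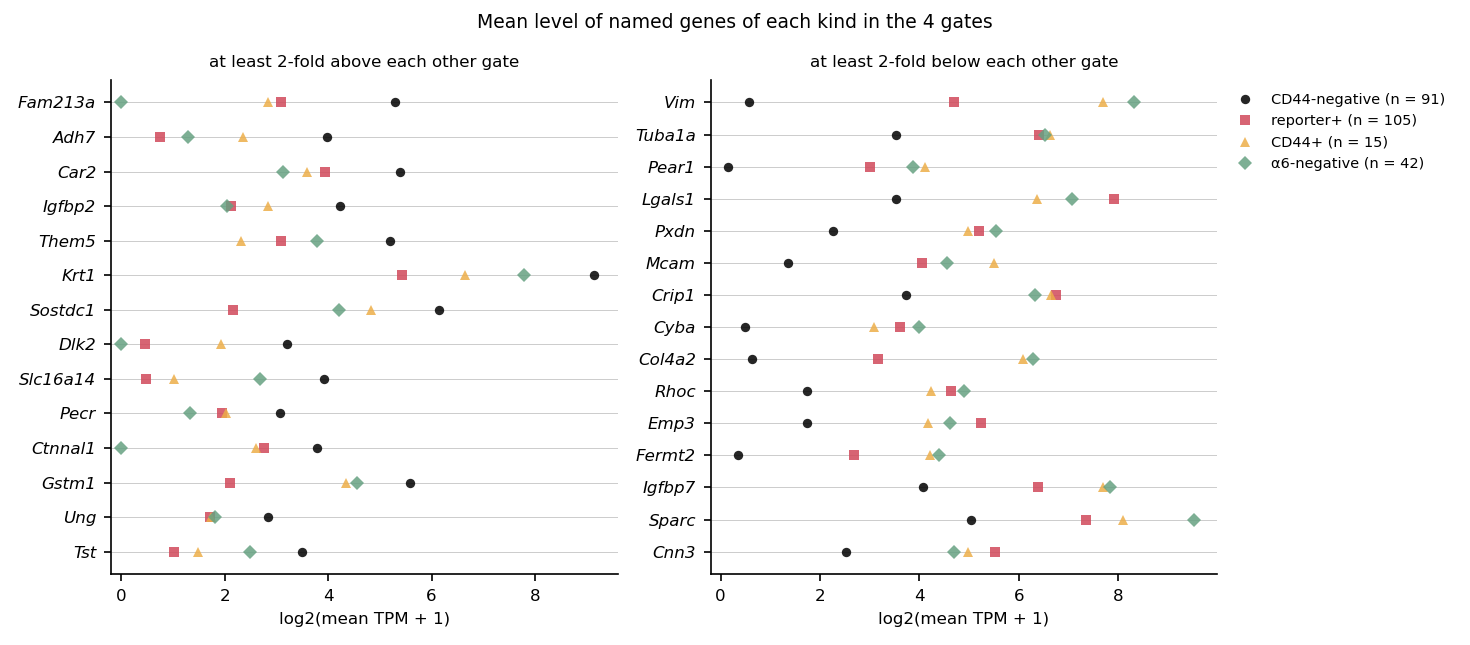
Mean level, as log2(mean TPM+1) on the x axis, of named genes that were at least 2-fold above and of named genes that were at least 2-fold below each other gate (y axis), in the 4 gates before therapy. Points are means of 1 sample per gate with no error; Fam213a, Dlk2 and Ctnnal1 are at 0 in the α6-negative gate, and Vim is near 0 in the CD44-negative gate.

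Compared with reporter-positive cells alone, the CD44-negative cells had less RNA for integrin β4 and laminin β3, growth factor ligands and cell cycle inhibitors. Over all 9044 genes the median log2 difference was -0.07; 4.32% of genes lay 2-fold or more above the reporter-positive level, and 9.07% (820 genes) 2-fold or more below it. Of the 20 basal keratinocyte genes none was higher and 8 were lower, with a list median of -0.39. Itgb4 averaged 83.4 TPM against 291.6, Lamb3 70.6 against 352.1, and Itga3 50.97 against 138.99, while Krt5, Krt14, Trp63 and Col17a1 were within 2-fold. In rows E to H against the first reporter-positive set, where the median was -0.05 with 5.32% of genes higher and 10.8% lower, again 0 of 20 were higher and 8 lower. Against the 9 cells without a partner, where the median was 0.30 with 23.1% higher and 9.54% lower, 3 were higher and 3 lower, and Itgb4 averaged 174.7, Lamb3 146.5 and Itga3 36.1 TPM in those cells. These 9 cells had a median of 4446 genes.

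Ligands of the EGF receptor were lower while the receptor was level. Areg, amphiregulin, averaged 8.04 TPM against 52.6 in the reporter-positive gate, Hbegf 11.2 against 91.8, Tgfa 13.5 against 70.8 and Ereg 0.46 against 5.997, and of 10 tested genes of this family 5 were at least 2-fold lower and 0 higher. Egfr averaged 31.6 TPM against 32.3. In rows E to H against the first reporter-positive set 6 of 10 were lower and 0 higher. Against the 9 cells without a partner 5 were again lower and 1 higher, with Tgfa at 57.7 and Areg at 22.1 TPM in those cells. Of 11 cell cycle inhibitors and p53 targets 6 were lower and 0 higher. Against the 9 cells 6 were lower and 2 higher, and in rows E to H against the first reporter-positive set 6 were lower and 1 higher. Among them was Cdkn1a, the inhibitor p21, which ran from 0 to 452.15 TPM (median 42.9) and averaged 73.02 TPM against 270, and 277.5 in the 9 cells. Conversely, 6 of 21 G2/M genes and 7 of 18 S phase genes were higher and 0 lower, with Mki67 at 9.44 TPM against 3.31. Against the 9 cells 14 of 21 and 14 of 18 were higher, but in rows E to H against the first reporter-positive set 11 of 21 G2/M and only 1 of 18 S phase genes were. Plau, the urokinase gene, averaged 37.9 TPM against 295.1, and 86.3 in the 9 cells.

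Keratins and envelope genes separated the gates further. Krt8, a keratin of simple epithelia, was listed at 0 in every CD44-negative cell and averaged 37.5 TPM in the reporter-positive gate (13.5 in the 9 cells), and its partner Krt18 averaged 0.52 against 44.1 TPM (12.4 in the 9 cells). In the first reporter-positive set they averaged 31.8 and 51.3 TPM. Krt10 averaged 122.97 TPM (0 to 2420, median 7.21) against 7.15, and 2.19 in the 9 cells. Of 16 cornified envelope genes 10 were lower and 1, Tgm3, was higher, with Sprr1a at 22.1 against 593 TPM and Klk6, a kallikrein, at 0.21 against 167.99 TPM. Against the 9 cells, which had a median of 4446 genes, 23.1% of all genes were higher and 9.54% lower. Of the envelope genes 4 were higher and 2 lower there, and Sprr1a averaged 20.8 TPM in those cells. The parts of depth and of having a partner were not tested. In rows E to H against the first reporter-positive set 1 envelope gene was higher and 9 lower. Aldh3a1, an aldehyde dehydrogenase, averaged 36.3 TPM against 1.10, and Gsta4 93.7 against 427.7, so glutathione and NRF2 genes went both ways (2 higher and 4 lower of 19). Against the 9 cells 4 were higher and 1 lower, with Gsta4 at 176.7 TPM in them, and in rows E to H against the first reporter-positive set 4 were higher and 4 lower.

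Relative to the CD44+ reporter-negative cells the CD44-negative cells were lower in interferon and immediate early genes, and in class I genes when all 15 cells were counted. Over all genes the median was -0.03; 5.16% lay 2-fold or more above the CD44+ level, and 14.2% (1280 genes) 2-fold or more below it. Of 17 interferon response genes 14 were lower, of 13 class I genes 8 and of 17 immediate early genes 13, and none was higher. Fos, an AP-1 subunit, averaged 155.8 TPM against 366.4, Jun 70.2 against 195.2, and Ifi27l2a 79.3 against 314.03. Rows A to D alone, with the same Xist and pseudogene pattern as the CD44+ cells (median -0.05, with 5.33% higher and 14% lower), had 6 of 17, 4 of 13 and 6 of 17 lower and none higher. Stress keratins and alarmins went the other way, where 5 of 9 genes exceeded the CD44+ level 2-fold or more and 0 lay as far below it. In rows A to D alone 7 of 9 were higher and 1 was lower. Krt16 averaged 1135 TPM over all CD44-negative cells against 519.2. Of the 15 CD44+ cells 3 were led by fibroblast or pericyte markers. Against the 12 led by keratinocyte markers, an alternative added after seeing the data (median 0.03, with 6.39% of genes higher and 8.67% lower), 12 of 17 interferon, 3 of 13 class I and 13 of 17 immediate early genes were lower, and 3 of 9 stress keratins and alarmins were higher, with Krt16 at 649 TPM in those cells. Rows A to D alone against these 12 CD44+ cells had 609 of 9044 genes higher and 802 lower. There, 5 of 17 interferon, 1 of 13 class I and 10 of 17 immediate early genes were lower and none higher. Of the stress keratins and alarmins, 6 of 9 were higher and 1 lower in that comparison. All but 1 of the CD44+ libraries had a partner labelled after transfer.

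Relative to α6-negative cells the differences were the largest in number, with a median of -0.18, 873 genes (9.65%) higher and 2016 (22.3%) lower. Of the 20 basal keratinocyte genes 13 were higher and 0 lower, and of 21 G2/M genes 20 were higher. Lamb3 averaged 0.06 TPM and Itgb4 4.66 TPM in the α6-negative gate. Of 20 matrix and protease genes 19 were lower, beside 12 fibroblast-led and 3 pericyte-led cells among the 42 of that gate; the part of these cells in the result was not tested.

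Within the gate, cells with Xist and cells with Y-linked transcripts differed in interferon genes. Of 6697 genes with a mean of 5 TPM or more in either set, 300 (4.48%) were at least 2-fold higher in Xist cells and 230 (3.43%) in Y-linked cells, with a median log2 difference of -0.04. Of 14 interferon response genes 11 were higher in Xist cells and 1 in Y-linked cells, with a list median of 1.87. Early suprabasal genes went both ways, with 2 of 14 higher in Xist cells and 4 in Y-linked cells and a list median of -0.14. Serpina3h, a serpin gene annotated as a transcribed pseudogene, averaged 107.2 TPM in the upper and 4.99 TPM in the lower rows, and Ptgs2, cyclooxygenase 2, 12.9 and 0.60 TPM. Among those higher in the lower rows, Krt10 averaged 50.2 and 194.1 TPM, Calm4 145.3 and 488.9 TPM, and Gclm, a subunit of the glutathione-synthesis enzyme, 12.8 and 53.8 TPM. Sex, animal, tumour and plate position cannot be told apart in these sets.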

How the data were processed

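Single cells were prepared by Smart-seq2 and sequenced as paired ends, per the labels' protocols. The deposited values are TPM, made by the authors with Bowtie2 2.2.9 and RSEM 1.2.30 on mm10, per the submitters' processing notes. Their gene annotation, not given in the sources used here, was taken as the deposited row identifiers show it. A deposited 0 can be a failed estimate, and read depth cannot be recovered from these values. Gate and plate position came from the column names; rows were matched to GENCODE M21 by Ensembl ID (46005 of 46517) for gene type and GRCm38 coordinates. Libraries with at least 2000 genes at TPM 1 were kept (254 of 362 before therapy, with 105 in the reporter-positive gate). Wells were sorted singly and no doublet caller was run. Libraries were taken as repeats where each was the other's best match with an r of 0.88 or more or a margin of 0.05 (234 pairs in the series), and 1 such pair within the α6-negative gate was averaged.

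Folds were ratios of mean TPM plus a pseudocount of 1, over genes with a mean of 5 or more in at least 1 gate; with 1 sample per gate no test was made. Shares have exact Clopper-Pearson 95% intervals that cover the counting of cells only. Excess SD used genes with a mean of 5 or more found in at least 10% of cells and a running median of 201 genes. Named genes were the 30 protein-coding genes with the highest mean, the 15 highest and 15 lowest against all gates among genes found in 25% of the highest gate, the 25 with the largest excess SD, the 10 each way between Xist and Y-linked cells, listed genes, the label markers and the sort genes; the text prints a selection of these, with a few genes not reported here, and genes correlated with Krt1 or Krt6a, Hox genes and the genes of the cells low in Krt6a were chosen after their values were seen. The members and all gene lists were chosen with earlier results of these data known. Promoters came from RefSeq (GRCm38.p6). Scripts ran in Python 3.11.15 with numpy 2.4.6, pandas 2.3.3, scipy 1.17.1 and matplotlib 3.10.9 and were tested on simulated data first.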

Additional observations from a re-analysis of the deposited data

How the results depend on the processing

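No paired analysis was possible because no animal is named. Numbers of genes past a threshold depended on the settings and are given per 100 of the genes tested in the report (9044 between gates, 46517 gene rows, 6049 for the spread, 6697 between Xist and Y-linked cells), so that their sizes compare. The genes high (0.354%) and low (1.76%) in the gate came to 3.68% low with a pseudocount of 0.1, 0.177% and 0.575% with a pseudocount of 5, 0.321% low by the difference of mean logs, 1.07% high with no filter, 0.0995% and 0.907% with a mean of 20 or more, and 1.29% and 4.82% when TPM was rescaled without ERCC and ribosomal rows. With cells led by keratinocyte markers 0.608% were low, and with only Y-linked cells 2.93%. The members of the high set changed too. By the difference of mean logs 43 genes were high, of which 8 were among the 32, and 8 of the 15 named stayed past 2-fold. In cells with 6000 to 8000 genes 36 were high, 15 of them shared, and 10 of the 15 named stayed. All 15 named genes kept their sign in both settings. Alternatives chosen after seeing the data gave 0.21% high among protein-coding genes, 2.79% low for rows E to H, and 2.90% high and 2.92% low without libraries that had a partner after therapy, which removed the CD44+ gate.

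Directions reversed for Mcam (0.89), Cyba (0.50), Col4a2 (0.46), Rhoc (1.19), Igfbp7 (0.92), Sparc (1.23) and Cnn3 (0.84) with keratinocyte-led cells, for Sostdc1 in Xist cells (-0.083) and rows A to D (-0.020), for Fermt2 without the partnered libraries (0.34), and for the excess SD of Rpl34-ps1 in Xist cells (-0.12) and rows A to D (-0.16); the cause was not tested. Genes in nearly all cells were 2.68%, against 1.63% at TPM 5, 4.32% at 90% of cells and 0.847% in every cell. Variable genes were 2.33%, against 1.41% at a mean of 20 or more, 3.92% with log2(TPM+0.1), 3.77% after rescaling and 1.54% among protein-coding genes. Genes higher in Xist and Y-linked cells were 4.48% and 3.43%, against 2.001% and 1.15% with a pseudocount of 5 and 15.3% and 7.76% after rescaling; those higher in Xist cells were 2.40% by mean logs and 6.79% at TPM 5. The median of genes per cell was 4740 at TPM 5.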

Other observations

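Of the 5 CD44-negative wells that were left out, at A2 (979 genes), C6 (17), C8 (1674), F12 and H3, the wells A2 and C8 had ERCC shares of 0.51% and 0.44%, near the median of 0.43% in the kept cells.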
